A study of Drosophila melanogaster with 3 samples.

Results

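The genes described here are 10 genes of the embryonic salivary gland of Drosophila melanogaster, taken as a fixed list out of 13945 protein-coding genes in the Ensembl annotation of the dm6 assembly. They comprise 7 transcriptional regulators (fkh, CrebA, sage, hkb, eyg, toe and rib) and 3 genes whose products work in the secretory pathway (PH4alphaSG1, PH4alphaSG2 and pip), called effectors below. Around each gene, peaks of the zinc finger protein Senseless were collected from chromatin immunoprecipitation and sequencing of whole embryos of mixed sex, aged 4 to 14 hours. The embryos came from a transgenic line that stably expresses Senseless with green fluorescent protein (GFP) at its C-terminus, and the description of the samples gives an antibody against GFP. The antibody field of the same labels names sens instead, so the labels do not settle which was used. There were 3 biological replicates of 1 group and no second condition, so no test between conditions was possible, and no peak list of a control was used here. Because whole embryos were used, strong binding in few cells and weak binding in many cannot be told apart, and no peak can be placed in the salivary gland itself.

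The salivary gland forms from a pair of ectodermal placodes on the ventral side of the embryonic head, where Sex combs reduced and its cofactors switch on the gland's genes. The placode cells sink into the embryo and become a tube of secretory cells that survive without dividing. Fork head (fkh) and the bHLH protein Sage maintain the secretory programme, CrebA raises the genes of the secretory pathway, and Huckebein (hkb) sets where the cells invaginate. Senseless is known to act downstream of Fork head in this gland, where it keeps cells alive by holding down the cell death genes rpr and hid. The prolyl hydroxylase subunits PH4alphaSG1 and PH4alphaSG2 are known to depend on Fork head and Sage, and pip encodes a Golgi sulfotransferase.

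The DNA under 7 peaks is shown first, because these windows differ in base composition and in the letters they hold. They come from 5 reproducible summits, strong and weak, and from the promoter peaks of eyg and PH4alphaSG2, which fell below the reproducible list. Other promoter peaks below that list, such as those of rib (pooled rank 6254) and toe (24907), are not shown. Each window spans 50 bp on either side of the summit and is given 5′ to 3′ on the gene's own strand, from the RefSeq sequence of the dm6 assembly. Capitals mark every match, on either strand, to 6 motifs that were searched: the Senseless core AAATCA, the E-box CANNTG bound by bHLH proteins, the core ACGTG of CrebA-type sites, the forkhead-type sites TGTTTAC and TGTTTGC, and the GATA-type site AGATAA.
fkh, 207 bp upstream, chr3R:28585421-28585521, minus strand: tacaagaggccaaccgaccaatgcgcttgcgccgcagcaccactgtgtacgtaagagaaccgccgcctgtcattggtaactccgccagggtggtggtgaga
CrebA, 536 bp upstream, chr3L:15534809-15534909, plus strand: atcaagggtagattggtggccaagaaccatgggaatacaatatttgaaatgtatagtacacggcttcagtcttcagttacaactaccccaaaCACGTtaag
CrebA, intron, chr3L:15538114-15538214, plus strand: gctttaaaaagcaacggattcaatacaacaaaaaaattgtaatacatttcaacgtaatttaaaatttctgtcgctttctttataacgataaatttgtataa
pip, 266 bp upstream, chr3L:19337825-19337925, minus strand: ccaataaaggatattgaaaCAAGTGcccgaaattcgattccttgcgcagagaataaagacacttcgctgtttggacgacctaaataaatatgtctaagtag
PH4alphaSG1, 4295 bp downstream of its start, chr3R:30501316-30501416, minus strand: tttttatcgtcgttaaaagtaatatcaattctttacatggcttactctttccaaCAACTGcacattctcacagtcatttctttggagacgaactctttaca
eyg, 188 bp upstream (below the reproducible list), chr3L:12468159-12468259, minus strand: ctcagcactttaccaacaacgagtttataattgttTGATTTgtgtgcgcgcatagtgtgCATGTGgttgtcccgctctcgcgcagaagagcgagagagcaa
PH4alphaSG2, 86 bp upstream (below the reproducible list), chr3R:30489938-30490038, plus strand: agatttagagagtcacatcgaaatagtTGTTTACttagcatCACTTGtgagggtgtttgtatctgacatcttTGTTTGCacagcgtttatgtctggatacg

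None of the 8 reproducible summits in the genes' territories had the Senseless core within 50 bp, and 14.2% of all 3811 reproducible summits did. The nearest core lay 118.5 bp, measured to its centre, from the intronic summit of CrebA and 123.5 bp from that of pip. Both distances are within those genes' peak intervals, and the other 6 intervals held no core, against 38.9% of all reproducible intervals that held one. An E-box was present at 3 of the 8 summits (35.3% of all summits), namely those of pip, of PH4alphaSG1 and of fkh at 1817 bp upstream. The core ACGTG was present at 1 of the 8, CrebA at 536 bp upstream (6.27% of all). No window of the 8 held either forkhead-type site (4.198% and 3.88% of all) or the GATA-type site (8.003% of all). The windows printed above for eyg and PH4alphaSG2 come from peaks below the reproducible list and are only some of the weaker promoter peaks. That of eyg holds a Senseless core and an E-box, and that of PH4alphaSG2 holds both forkhead-type sites and an E-box. For these matches no share over the pooled list is given. With 8 windows these are descriptions of letters, and a match shows no binding of a factor.

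The list left by the authors' irreproducible discovery rate threshold, which compares replicates, held 3811 peaks, called reproducible here. The name refers to the list and not to each peak: 3758 of its summits had a peak over them in all 3 replicates. For every gene named here with such a summit, the strongest one had the same rank in the pooled list. The pooled list held 28357 peaks and the replicate lists 30000, 30000 and 27681. The territory of a gene is its body plus 5 kb on each side, and a promoter summit lies within 500 bp of one of the gene's own transcript starts; all other summits in a territory are called distal. The signal value of a peak is the authors' own, on a scale that is not stated, so ranks by signal (1 is the strongest) are given beside it. Library depth is unknown.

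Of the 10 genes, 5 had a reproducible summit in their territory: fkh, CrebA, rib, PH4alphaSG1 and pip. Over all protein-coding genes the share was 42.4%, so the count for the 10 genes is close to the background. They held 8 reproducible summits in all, 3 at promoters (fkh, CrebA and pip) and 5 distal. A promoter summit was thus present at 3 of 10 genes, against 16.4% of all genes, and a distal summit at 4 of 10, against 34.1%. By signal the 8 summits ranged from rank 210, in rib, to rank 3775, near PH4alphaSG1, close to the end of the list.

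**Figure D1:**
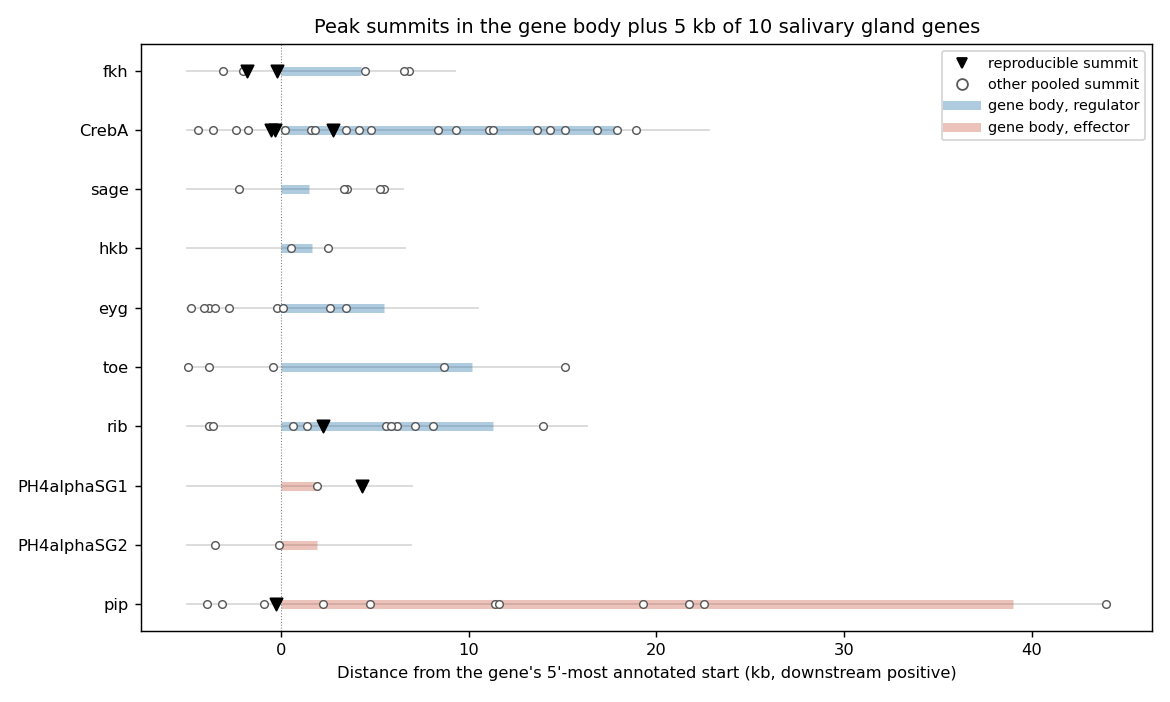
Positions of peak summits along the 10 genes, in kb from each gene's most upstream annotated start, with downstream positive; thick bars are gene bodies and thin lines the 5 kb margins. Triangles are the 8 reproducible summits and circles the other pooled summits; CrebA carries the most summits, and sage, hkb, eyg, toe and PH4alphaSG2 have circles only.

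The gene fkh, which encodes the winged-helix factor at the head of the gland's programme, carried its strong peak at the promoter. The gene lies on 3R from 28580976 to 28585264 (minus strand, dm6, FBgn0000659). The promoter summit, at position 28585471, stood between genes, 207 bp upstream of the start, with signal values of 149.8, 169 and 141 in replicates 1, 2 and 3 (mean 153 ± 14.4 SD, n = 3). Its ranks there were 321, 645 and 508, and the replicates' own summits lay at most 34 bp from it. The window is GC-rich (59.4%, against a median of 32.7% over all reproducible summits), the highest of the 8.

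The other summit at fkh lay 1817 bp upstream, at position 28587081, in an exon of a long non-coding RNA, CR43126, whose own start was nearer at 1033 bp. Its signal values were 64.3, 59.3 and 37.5 and its ranks 1865, 4014 and 4721. The ranges of both fkh summits did not overlap: the lowest value at the promoter exceeded the highest upstream. The upstream summit was among the strongest 3811 peaks in replicate 1 only. No other coding gene has its body within 5 kb of fkh.

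CrebA, the bZIP activator of secretory pathway genes, held 3 of the 8 reproducible summits. The gene lies on 3L from 15535395 to 15553214 (plus strand, dm6, FBgn0004396). A summit in its intron, 2769 bp inside the gene at position 15538164, had signal values of 85.5, 114.7 and 56.8 (mean 85.7 ± 29.0 SD, n = 3) and ranks 1054, 1353 and 2557. The upstream summit at 536 bp (position 15534859) had 72.7, 98.1 and 68.4 (mean 79.7 ± 16.1 SD, n = 3) and ranks 1467, 1779 and 1891. The replicate ranges of both summits overlap, and their ranks in the pooled list, 1483 and 1486, are nearly equal.

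The promoter summit of CrebA, 330 bp upstream at position 15535065, was weaker (rank 3469), with a pooled signal value of 148.4 against 252.8 at 536 bp upstream. Replicates 1 and 2 had a summit of their own within 25 bp of it, with ranks 2221 and 5408. In replicate 3 the nearest summit within a peak over this position was that of the neighbouring peak, 190 bp away, so the promoter summit of CrebA was not separately resolved there. The territory of CrebA held 23 pooled summits, most of them weak. These in 27820 bp make 8.27 per 10 kb, a density above that of 99.2% of protein-coding genes, whose median is 2.48.

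The gene rib encodes a BTB-domain factor needed for elongation of the salivary gland and tracheal tubes, and it carried the strongest peak of the 10 genes. It lies on 2R from 19270078 to 19281396 (plus strand, dm6, FBgn0003254). The summit stood in an intron, 2248 bp downstream of the upstream one of the gene's 2 annotated starts, at position 19272326. Signal values were 164.4, 289 and 183 (mean 212 ± 67.2 SD, n = 3), and replicate 2 stood highest. The ranks, 257, 185 and 280, were close to each other, and the replicates' summits lay at most 26 bp from the pooled one. Only 3.97% of protein-coding genes had a stronger peak in their territory. The other pooled peaks of rib were far weaker; the next ranked 4958, 1381 bp inside the gene. At the downstream start a pooled summit lay 44 bp away with rank 6254, and the replicates' values over it were uneven, with ranks 17923, 11459 and 3258.

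No reproducible summit fell in the territories of the other 4 regulators. The gene eyg encodes a Pax-family factor needed for the salivary ducts and lies on 3L from 12462537 to 12468021 (minus strand, FBgn0000625). It had 9 pooled summits, a density of 5.81 per 10 kb, above that of 93.4% of genes. The strongest, 188 bp upstream at position 12468209, ranked 5533 in the pooled list, with signal values of 36.1, 39.9 and 26.7 and ranks 5374, 7263 and 7758. All 3 replicates thus placed a peak at the eyg promoter, below the 3811 strongest in each.

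A reproducible summit nevertheless lay 5047 bp from the 3′ end of eyg, just beyond the 5 kb margin, at position 12457490 on 3L. It ranked 1052 of 3811, with signal values of 102.3, 153 and 48.2 and ranks 753, 782 and 3289, and eyg had the nearest annotated start, 10531 bp away. With each summit given to the gene with the nearest start, 5 of the 10 genes had one (17.4% of all genes): fkh, CrebA, eyg, rib and pip. PH4alphaSG1 dropped out under that rule and eyg came in.

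The paralog of eyg next to it, toe (3L, 12422510 to 12432668, minus strand, FBgn0036285), had the weakest peak of the 10 genes in the pooled list. Its strongest peak ranked 19905 of 28357, and 80.8% of genes had a stronger one. Each of its 5 pooled peaks had a peak over it in 1 replicate only. The strongest peak of toe in any replicate was in replicate 3, at rank 9881.

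The bHLH gene sage (3R, 9262654 to 9264142, minus strand, FBgn0037672) lies among 6 other coding genes within 5 kb. Its strongest pooled peak, rank 6617, stood 38 bp from the start of ATP6AP2, an accessory protein of the vacuolar proton pump, and 3219 bp from a sage start. In replicate 1 this site ranked 2672, with a signal value of 53.1. Over the same pooled summit the value was 17.2 in replicate 2 and 31.5 in replicate 3. At the start of sage itself the pooled list held no peak, and a peak at rank 28639 in replicate 2 was the only one in a replicate.

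The zinc finger gene hkb (3R, 4345015 to 4346646, minus strand, FBgn0261434) had 2 pooled summits. The stronger lay 537 bp inside the gene, in coding sequence, at rank 15522, with no peak over it in replicate 1 and ranks 26144 and 15729 in replicates 2 and 3. The nearest reproducible summit was 12421 bp from its start. No other coding gene has its body within 5 kb of hkb.

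Among the effectors, pip carried a promoter peak. The gene lies on 3L from 19298623 to 19337609 (minus strand, dm6, FBgn0003089), and the summit, at position 19337875, stood 266 bp upstream of its start. Signal values were 65.9, 89.9 and 26.6 (mean 60.8 ± 31.9 SD, n = 3), with ranks 1774, 2056 and 7819. Replicate 3 was low here: its strongest peak in the territory of pip lay instead in an intron, 22539 bp inside the gene, at rank 5781. In the pooled list that intronic site was the next strongest of pip, at rank 5020, with signal values of 15.5, 53.4 and 32.6, so replicate 1 was low at this site.

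The reproducible summit in the territory of PH4alphaSG1 was the weakest of the 8. PH4alphaSG1 lies on 3R from 30503665 to 30505661 (minus strand, dm6, FBgn0051014), and the summit at position 30501366 lay 4295 bp downstream of its start. That is in an intron of CG31371 and 1040 bp from the start of another prolyl hydroxylase gene, PH4alphaNE1. Signal values were 35.02, 64.1 and 44.2 (mean 47.8 ± 14.9 SD, n = 3), with ranks 5656, 3531 and 3733. At the start of PH4alphaSG1 itself no pooled peak was found, and replicate 3 alone had a peak there, at rank 15510.

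PH4alphaSG2 (3R, 30490074 to 30491987, plus strand, FBgn0039779) showed the reverse arrangement, with a peak at its own start and no reproducible one. The summit lay 86 bp upstream, at position 30489988, with a pooled rank of 6268. The strongest peak within 500 bp of the start had signal values of 24.2, 32.6 and 38.7 in replicates 1, 2 and 3 and ranks 11307, 9909 and 4534. In replicate 1 that peak's summit was 211 bp upstream, and the value over the pooled summit was 18.4 (rank 19090). All 3 replicates therefore had a peak at the PH4alphaSG2 promoter, and none placed it among its 3811 strongest.

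**Figure D2:**
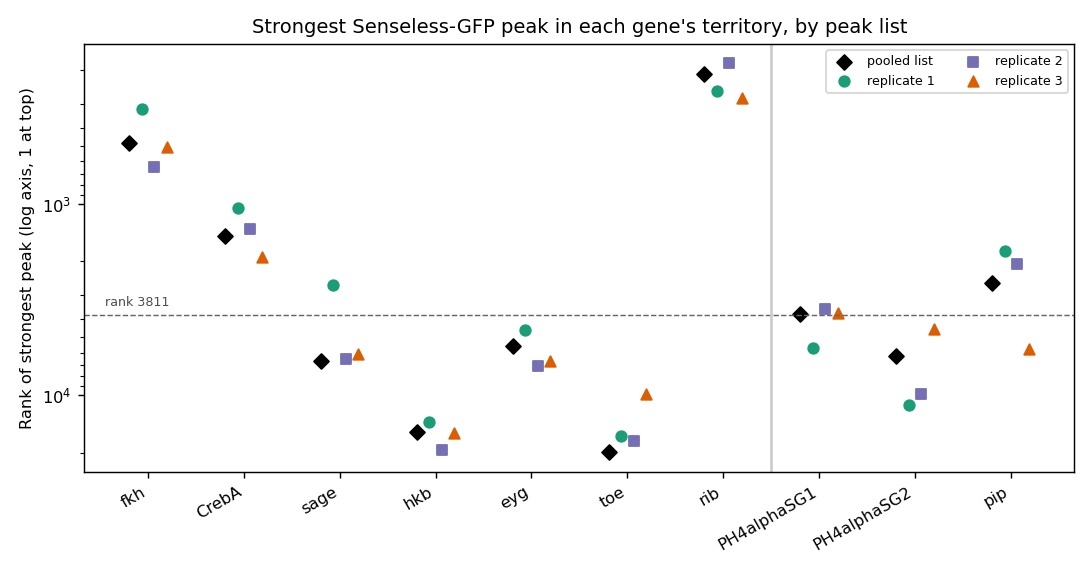
Rank of the strongest peak in each gene's territory (log axis, rank 1 at the top) in the pooled list and in each replicate; the dashed line is rank 3811, the size of the reproducible list, and the vertical line parts regulators from effectors. The genes rib, fkh and CrebA lie above the line in every list, hkb, toe, eyg and PH4alphaSG2 below it in every list, and sage, PH4alphaSG1 and pip on either side depending on the replicate.

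Regulators and effectors were then set side by side. A reproducible summit was present at 3 of 7 regulators and 2 of 3 effectors, against 42.4% of all genes. The peaks of 2 regulators were known beforehand, and 1 of the other 5 had a summit. Of the effectors, 0 were known beforehand. The regulators held 6 summits (2 promoter, 4 distal) in 122 kb of territory, or 4.91 per 100 kb, and the effectors 2 (1 promoter, 1 distal) in 72.9 kb, or 2.74 per 100 kb. Over the chromosome arms as a whole the density was 2.85 per 100 kb. That figure covers all sequence and not only gene territories, so it is not a like baseline for either group. Single genes weigh heavily in these densities: pip made up 48987 bp of the effectors' territory, and CrebA held 3 of the regulators' 6 summits. The strongest pooled peak had a median rank of 5533 over the regulators and 3775 over the effectors, against 5116 over all protein-coding genes, but the regulators spread far more widely, from 210 to 19905, than the effectors, from 2591 to 6268. With 7 and 3 genes, which are not replicates, no test of this difference was made.

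Each of the 2 effector summits fell among the strongest 3811 peaks in 2 replicates. The regulators fkh, CrebA and rib each had a summit that did so in all 3. The fkh summit 1817 bp upstream did so in 1 only, the fewest of the 8. In each replicate's own 3811 strongest peaks, 5, 5 and 4 of the 10 genes had a summit, against 42.6%, 42.6% and 42.2% of all genes in replicates 1, 2 and 3. Regulators numbered 4, 3 and 3 of 7, with sage added in replicate 1, and effectors 1, 2 and 1 of 3. Each replicate was also left out in turn, keeping reproducible peaks that the remaining pair of replicates both ranked within their top 3811. The regulators then numbered 3 in each case. The effectors numbered 1 without replicate 1 or 3 and 0 without replicate 2. The count over all 10 genes was 4, 3 and 4 in those settings. The reported counts, 2 effectors among them, carry no such cut on replicate ranks. With the cut in all 3 replicates, 5 of the 8 summits remained, all of fkh, CrebA and rib. The lower counts therefore come with the added cut and do not measure the loss of a replicate.

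In every replicate, 5 of the 8 summits fell in a peak ranked 3811 or better, against 64.3% of all reproducible summits. These were the fkh promoter summit, the 3 of CrebA and that of rib. The promoter summit of CrebA is counted only through the neighbouring peak at 536 bp upstream in replicates 2 and 3 (ranks 1779 and 1891), which also covers its position; its own peak in replicate 2 ranked 5408. Where a replicate summit had to lie within 100 bp, a rule added after the data were seen, the count was 4, without the promoter summit of CrebA. The largest shift of a replicate's summit had a median of 34 bp over the 8 and of 39 bp over all reproducible summits with a peak in every replicate.

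**Figure D3:**
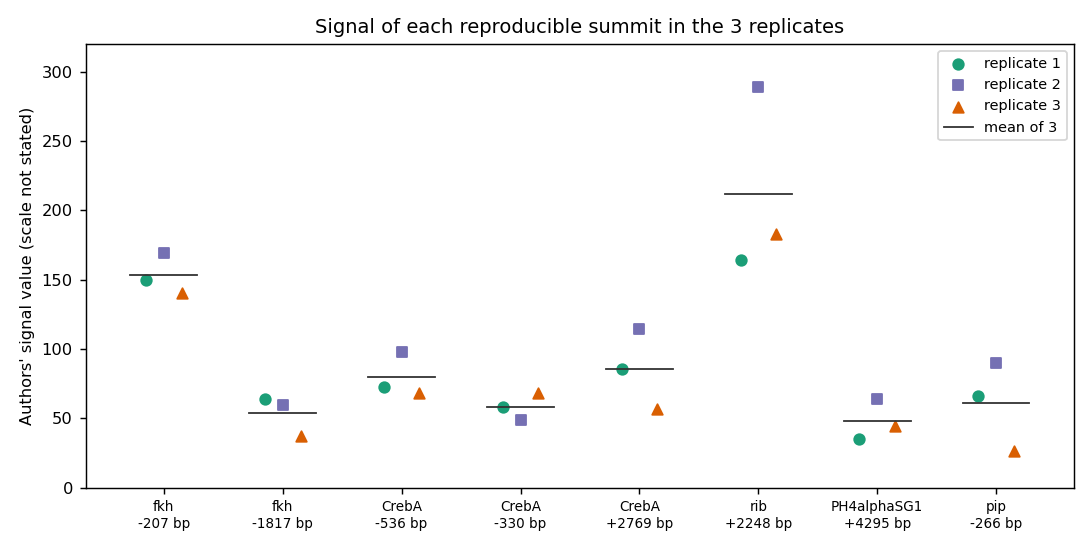
The authors' signal value (linear axis, scale not stated) of the 8 reproducible summits in the 3 replicates, with the mean as a bar; labels give the distance from the nearest own start, upstream negative. The peak in rib is the highest in every replicate, fkh at 207 bp upstream follows, and the value of replicate 3 for CrebA at 330 bp upstream belongs to the neighbouring peak, 190 bp away.

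The pooled list, which holds weaker peaks too, placed summits at more of the genes' starts. In it 7 of 10 had a summit within 500 bp of an own start, against 49.6% of all genes: fkh, CrebA, eyg, toe and rib among the regulators, and PH4alphaSG2 and pip among the effectors. Of these, fkh, CrebA and pip are the genes with a reproducible promoter summit. Only sage, hkb and PH4alphaSG1 had none. Just below the end of the reproducible list came summits of CrebA 2417 and 1747 bp upstream (ranks 4496 and 4881), of rib (4958) and of pip (5020), all with a peak in every replicate.

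Longer territories held a summit more often. With genes split into 4 groups of like size by territory length, 27.7% of genes in the shortest group had one and 55.8% in the longest, above 14.998 kb. CrebA, eyg, toe, rib and pip belong to the longest group, and 3 of these 5 had a reproducible summit. Of the 4 genes in the next to shortest group, sage, hkb, PH4alphaSG1 and PH4alphaSG2, 1 did, against 40.3% of genes there.

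Genes that act with the 10 in the gland were counted in the same way, from lists written from textbook knowledge with earlier results of these data in view. Of 10 genes of gland morphogenesis and survival, all had a reproducible summit in their territory and 7 had one at an own start, against 42.4% and 16.4% of all protein-coding genes. Of these 10 genes, 8 belong to the group with the longest territories, where 55.8% of genes had a summit. The peaks of sens, hid and rpr were known beforehand, and the other 7 also had one. The strongest was in Btk (listed as Btk29A), a Tec-family kinase gene that held 5 reproducible summits. Its strongest summit ranked 185 and lay inside the gene, 4509 bp downstream of the nearest own start. The nearest start of any gene was that of a tRNA gene. The cell death gene hid followed, with a summit 350 bp upstream at rank 409 (ranks 372, 360 and 588 in the replicates), and rpr, with one 4915 bp upstream at rank 763 (793, 730 and 870).

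Of 30 genes of the secretory pathway, many of which CrebA is known to activate, 23 had a reproducible summit in their territory and 11 at an own start, against 42.4% and 16.4% of all genes. For 8 of the 30 a reproducible summit had the gene's own start as the nearest of all, against 17.4% of all genes. The strongest peaks, at Tango1 (rank 42), beta'COP (80) and SrpRbeta (147), lay nearest to the starts of the neighbours CG31635, CG6565 and CG32022. Of summits at own promoters, that of TRAM of the translocation channel lay inside the gene, 90 bp upstream of one of its own starts. It had rank 157 (158, 190 and 131 in the replicates). The coat protein genes alphaCOP and deltaCOP had summits 129 and 155 bp upstream (ranks 253 and 440). These last 3 were named after their values were seen.

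Of 9 patterning genes that feed into the placode, 5 had a summit in their territory and 1, spi, at an own start, against 42.4% and 16.4% of all genes. Since 8 of the 9 are in the group with the longest territories, where 55.8% of genes had a summit, these counts are near the background. The EGFR ligand gene spi held 4 reproducible summits. The strongest, at rank 124 (172, 142 and 90 in the replicates), lay inside the gene, 206 bp upstream of one of its own starts. The BMP ligand gene dpp held 2, the strongest 5276 bp inside the gene at rank 591. The Hox cofactor gene hth held 9, the strongest 11106 bp inside the gene at rank 1448. The Hox gene Scr, which specifies the gland, had 1 summit beyond its 3′ end, at rank 3160 and nearest to a tRNA gene. That summit lay 29705 bp downstream of the nearest of Scr's own starts. No reproducible summit fell in the territories of exd, tsh, Abd-B and trh. Scr and these 4 genes were named after their values were seen.

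**Figure D4:**
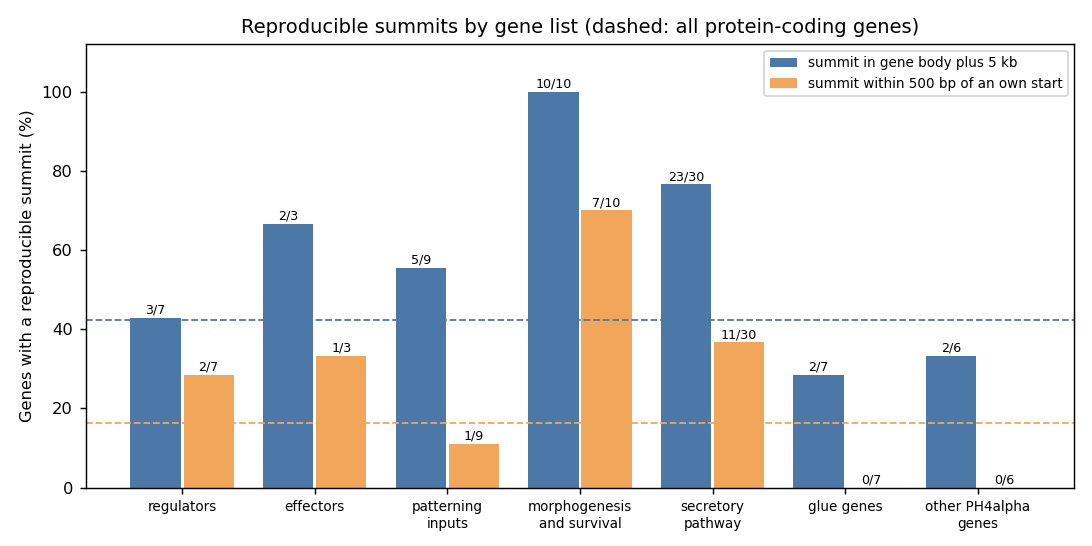
Share of genes in each list with a reproducible summit in the gene body plus 5 kb (blue) and within 500 bp of an own start (orange), in percent, with counts above the bars; dashed lines give the shares over all protein-coding genes, 42.4% and 16.4%. In territories, the regulators stand at the blue line, the effectors, patterning, morphogenesis and secretory pathway lists above it, and the glue and other PH4alpha genes below it. The dashed lines do not allow for territory length, which differs between the lists.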

How the data were processed

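Senseless-GFP peaks were measured in 3 replicates of 1 group, per the labels. The authors deposited peak lists in narrowPeak format, with a score (signal value) per peak on an unstated scale and a −log10 q-value per peak. Per the deposited text notes, peaks were called on each replicate and on the pooled replicates, and the reproducible list was derived from those; for these dm6 lists the notes name no control among the inputs. Aligner and caller names were not given in the sources consulted. Replicates 1 and 2 have lists of exactly 30000 peaks each. Only the 5 dm6 lists were used; the dm3 lists were not used here.

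Summits are 1-based and are the start plus the offset. Genes came from Ensembl release 115, whose spans for all 10 genes equal those of RefSeq. In replicates, a summit's value is that of the peak over it with the nearest summit. Ranks are by signal within a list. All 72 listed genes matched, 1 of them through a synonym.

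Members and lists were chosen with earlier results of these data known, so nothing here is independent support. With 1 group and genes that are not replicates, no test was run; the background is the same count over 13945 protein-coding genes. Text names all 10 genes, each gene whose start is nearest to a reproducible summit, and the 3 genes with the strongest summit per list. A few further genes are marked as named after their values were seen. The counting was tested on simulated data. Alternatives changed the margin, promoter window, list, overlap and replicates. Depth is unknown, so no precision from depth is given. Python 3.11.15, numpy 2.4.6, pandas 2.3.3 and matplotlib 3.10.9 were used.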

Additional observations from a re-analysis of the deposited data

How the results depend on the processing

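No paired analysis was possible because the series has 1 group. The count of regulators with a reproducible summit in their territory was 3 as reported and 3 or 4 in every alternative run. The count of genes, 5, was 3 in the strongest 1905 reproducible peaks and 3 to 4 without one replicate. It was 7 with a 10 kb margin and 6 in the pooled peaks at a q-value of 0.01 or lower. No share over all protein-coding genes was counted for these settings. The count of effectors, 2, was 1 with a 2 kb margin, with the nearest start, in replicate 1 and in replicate 3, 0 in the strongest 1905 peaks, and 0 to 1 without one replicate. With a 10 kb margin it was 3, where PH4alphaSG2 gains the same summit already counted for PH4alphaSG1. The 8 summits became 4 in the strongest 1905 peaks, 14 in the 5928 pooled peaks at a q-value of 0.01 or lower, and 5 to 6 without one replicate. Promoter summits, 3, were 1 in the strongest 1905 peaks and 1 with a 250 bp window, and 2 to 3 without one replicate. Distal summits, 5, were 3 in the strongest 1905 peaks, 10 at that q-value and 3 to 4 without one replicate. The median rank of the strongest peak per regulator, 5533, was 1483 with a 10 kb margin, where eyg gains the summit 5047 bp away, and 2672 in replicate 1. That per effector, 3775, was 6268 with a 2 kb margin, where the summit of PH4alphaSG1 is lost, and 5656 in replicate 1. The median ranks could not be made without one replicate, since the pooled list was not called anew. Fewer peaks in the stricter list set its counts by construction. The settings without one replicate add a cut on the ranks in the other replicates, which the reported counts lack. Their lower counts therefore do not measure the loss of a replicate. The rule that a replicate summit lie within 100 bp was chosen after seeing the data; it took the 5 summits shared by all replicates to 4. Over every setting run, that number was 4 to 7. Depth is unknown, and the signal scale is not stated, so weak peaks cannot be given a counting error.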

Other observations

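Of 7 glue genes, whose products the larval gland secretes before pupation, 2 had a reproducible summit in their territory (28.6%, against 42.4% of all genes). At an own start 0 had one, against 16.4% of all genes. The median territory of the glue genes was 10.952 kb, within the range of the shortest group (10.168 to 11.179 kb). In that group 27.7% of genes had a summit, so the territory count is near the share for genes of like length. The summits of Sgs4 (rank 814) and Sgs1 (rank 1198) lay nearest to the starts of the neighbours dnc, at 315 bp, and mRpL24, at 96 bp. In the territory of Eig71Ee no pooled peak was found. Eig71Ee, PH4alphaMP, PH4alphaEFB and PH4alphaNE2 were named after their values were seen.

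Of 6 other prolyl hydroxylase genes of the PH4alpha family, 2 had a reproducible summit in their territory (33.3%, against 42.4% of all genes) and 0 at an own start (16.4% of all genes). PH4alphaNE1 shares the summit described for PH4alphaSG1, and that of PH4alphaNE3 (rank 636; 406, 548 and 1173 in the replicates) lay nearest to the start of CG2246, at 370 bp. The strongest pooled peak in the territory of PH4alphaMP is the one at the start of PH4alphaSG2, rank 6268. The strongest pooled peak of PH4alphaEFB ranked 4017, and PH4alphaNE2 had none.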
